A study of Mus musculus with 20 samples.

Results

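The keratins of the epidermis were followed here through 9 genes. Krt5, Krt14 and Krt15 were grouped as basal, and Krt1, Krt10, Krt2, Krt77, Krt78 and Krt79 as suprabasal. They were listed by gene symbol, with earlier results of these data known although the rule itself uses no measured value, and all 9 were found among the 22090 gene symbols of the count table. Keratins are the intermediate filament proteins of epithelial cells, and each filament is built from a type I chain joined to a type II chain. Dividing basal keratinocytes make the type II chain Krt5 and its type I partner Krt14. When a cell leaves the basal layer it turns to Krt1 (type II) and Krt10 (type I), and Krt2 (type II) is added in the upper layers. Krt15 is a type I chain of basal cells and of the hair follicle bulge. Krt77, Krt78 and Krt79 are type II chains, of which Krt77 is a close relative of Krt1 and Krt78 lies in suprabasal layers. Krt79 is known from the upper hair follicle and the sebaceous duct. The suprabasal group is thus a label of the list, and for Krt79 it does not give its place in the skin.

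The libraries came from back skin of female SKH-1 mice, a hairless strain in which solar-simulated ultraviolet light induces skin tumors. By the methods the mice were aged 7 months when they were assigned to the groups, and tissues were taken at the end of the weeks of irradiation. The libraries comprised 8 normal skin (NS) tissues, 8 actinic keratosis (AK) tissues, which are the precancerous lesions, and 4 cutaneous squamous cell carcinoma (cSCC) tissues. By the methods the AK were of more than 1 grade, which the labels do not give, so the grades were pooled. By the methods, 4 irradiated mice gave every AK and cSCC and 4 of the NS, and 4 unirradiated mice gave the other NS. In the comparisons with NS, irradiation and lesion therefore cannot be fully told apart. The labels give neither the mouse of a tissue nor which NS had been irradiated, so NS were treated as 1 group and all tissues as unpaired, although the 8 AK stand for 4 mice. P-values treat the tissues as independent. Mice shared within a group could make them too small, and mice shared between groups could make them too large.

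All 9 genes lie on the minus strand of the 2 mouse keratin gene clusters (GENCODE M21, GRCm38). The type I genes are on chromosome 11, with Krt10 at chr11:99385254-99389364, Krt15 at chr11:100131758-100135928 and Krt14 at chr11:100203162-100207548. The type II genes are on chromosome 15, with Krt5 at chr15:101707070-101712898, Krt2 at chr15:101810689-101818169, Krt1 at chr15:101845426-101850794, Krt77 at chr15:101858731-101869705, Krt79 at chr15:101929332-101940324 and Krt78 at chr15:101946001-101954287. Krt10 overlaps the antisense gene Gm11940 and Krt5 overlaps the miRNA gene Gm44323, and because the strand used in counting is not stated, reads of such partners cannot be told apart.

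Promoter sequences were taken from RefSeq (GRCm38.p6), which held 7 of the 9 genes. Those of 3 suprabasal keratins and those of Krt5 and Krt78 are shown because each holds 1 of 2 runs of letters just before the start. Krt79 held neither run there, and the window of Krt14 lay 1518 bases inside the GENCODE gene, so neither is shown. Each line gives 60 bases before and 30 bases after the RefSeq start, on the minus strand and 5′ to 3′, with the run TATATA or GATAAAA in capitals.
Krt10, chr11:99389335-99389424: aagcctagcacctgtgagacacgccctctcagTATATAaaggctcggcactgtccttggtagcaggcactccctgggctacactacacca
Krt2, chr15:101818140-101818229: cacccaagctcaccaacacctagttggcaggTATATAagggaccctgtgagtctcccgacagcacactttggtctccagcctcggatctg
Krt77, chr15:101869676-101869765: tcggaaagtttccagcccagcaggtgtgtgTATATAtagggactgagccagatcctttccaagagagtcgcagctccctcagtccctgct
Krt5, chr15:101712876-101712965: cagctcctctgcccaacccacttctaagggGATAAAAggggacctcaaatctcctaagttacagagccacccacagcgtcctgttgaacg
Krt78, chr15:101954258-101954347: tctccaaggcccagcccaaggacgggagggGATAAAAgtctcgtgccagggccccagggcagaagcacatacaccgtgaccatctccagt
TATATA, which reads the same on both strands, began at base -28 in Krt10, at -29 in Krt2 and at -30 in Krt77, where a second copy overlapped it from -28. GATAAAA began at -30 in both Krt5 and Krt78. Of 32851 promoters, 1.66% held TATATA and 0.734% held GATAAAA on either strand between -60 and +10. The letters were chosen after these sequences had been read, and a match describes the sequence only.

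Library totals ranged from 775750 to 14055206 counts, so 3 counts, taken as the lowest detectable level, correspond to 0.225 to 3.78 CPM (a library's counts scaled to a common total). These floors cover counting error only. Levels and floors are CPM with TMM scaling over the 20 libraries. The scaling factor was 0.509 in cSCC replicate 18 and 0.852 to 1.22 in the other 19 libraries. In cSCC replicate 21 the 8 heart muscle markers summed to 54740 CPM, against 70.8 to 155 CPM in the other cSCC and 8.72 to 43.8 CPM in NS. In cSCC replicate 20 the 8 lung epithelium markers summed to 36018 CPM, all 8 with counts, against 9.67 to 10.4 CPM in the other cSCC. The 8 endothelial markers summed to 29.9 to 108 CPM in NS, 30.3 to 87.5 CPM in AK and 106 to 777 CPM in cSCC, with 7 higher in cSCC than in NS and all 8 higher in cSCC than in AK. The fits were therefore repeated without replicates 20 and 21, and the part of these other tissues in the results was otherwise not tested. In bulk tissue, fewer cells of a type and less RNA per cell cannot be told apart.

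NS made both basal and suprabasal keratins at high level. Divided by transcript length, the median level in NS was highest for Krt14 at 3523 CPM per kilobase, followed by Krt1 at 1083, Krt10 at 805, Krt5 at 631, Krt79 at 370, Krt77 at 234, Krt15 at 207, Krt78 at 23.8 and Krt2 at 13.2 CPM per kilobase. Krt14 stood above Krt1 in all 8 libraries, and every library had Krt15 above Krt78. The neighbours Krt1 and Krt10, Krt10 and Krt5, and Krt5 and Krt79 kept this order in only 5 of 8 libraries each, and Krt77 and Krt15 in 4 of 8, so these neighbours do not differ beyond their spread. In AK the order began with Krt14, Krt1 and Krt5, and Krt14 exceeded Krt1 in every library without overlap of their ranges. In cSCC it began with Krt14, Krt5 and Krt15, a basal gene in each of the first 3 places, and the ranges of Krt14 and Krt5 and of Krt5 and Krt15 did not overlap. Krt16, Krt17 and Krt42 are close relatives of Krt14, and how the authors' counting shared reads among them is not stated, so levels of single genes of that family are uncertain.

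The spread within NS differed widely among the 9 genes. Krt5 and Krt10 varied least, with a coefficient of variation of 38.0% and 38.2%, and Krt2 and Krt77 most, with 92.4% and 87.6%. Krt2 was at 56.1 to 74.5 CPM in NS replicates 1, 4, 5 and 6 and at 1.28 to 12.8 CPM in replicates 2, 7, 8 and 9. Krt77 was at 28.0 and 74.0 CPM in NS replicates 8 and 7 and at 604 CPM or more in the other 6. The same NS replicates 7 and 8 had 10921 and 14979 CPM of the 4 stress keratins Krt6a, Krt6b, Krt16 and Krt17 in sum, within or above the 7584 to 13021 CPM of AK, whereas the other 6 NS had 1996 to 5503 CPM. Krt14 was at 8818 and 13137 CPM in these 2 libraries. Whether this spread follows irradiation could not be examined, since the labels do not separate these NS.

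**Figure D1:**
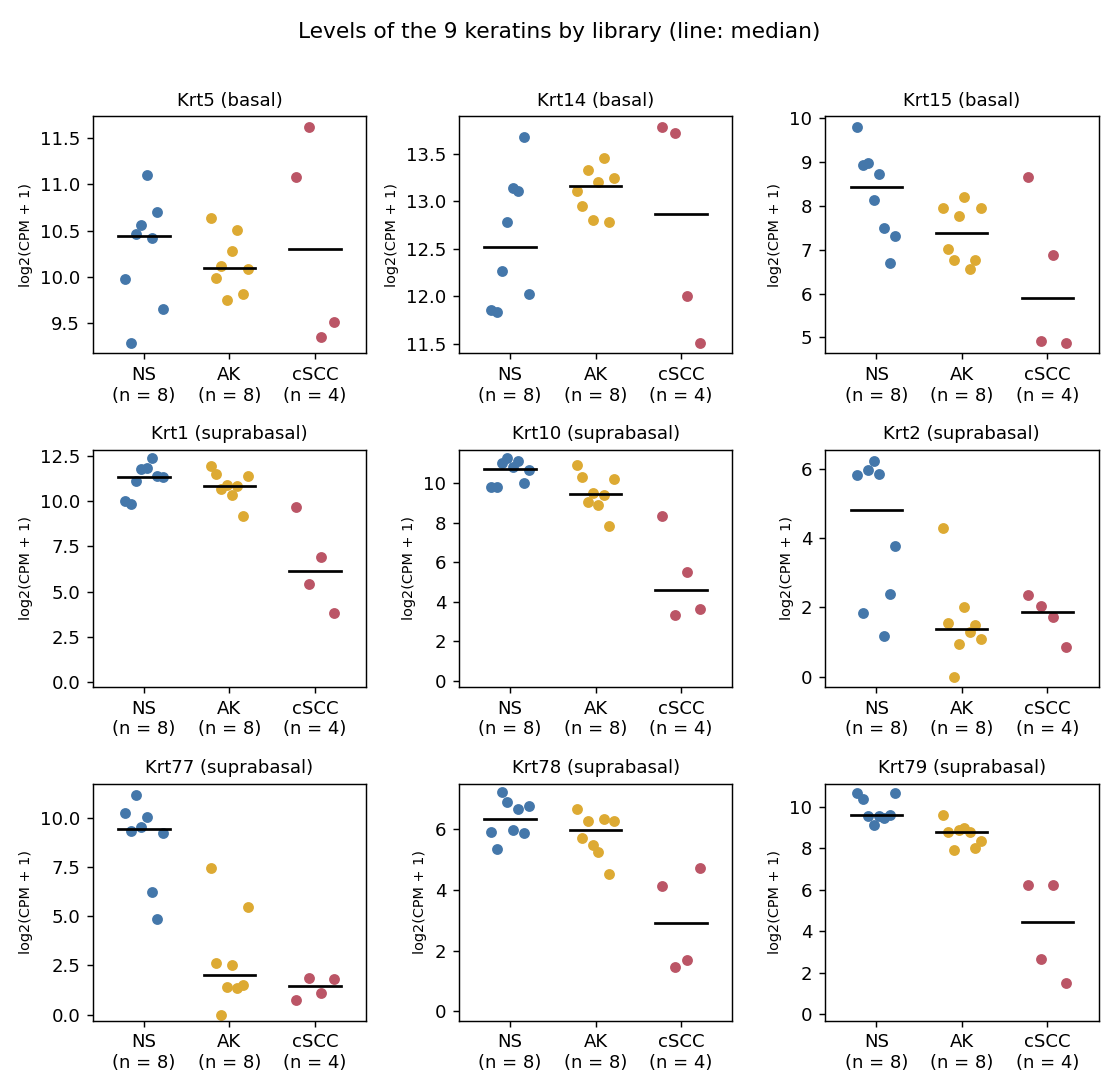
Levels of the 9 keratins as log2(CPM + 1) on the vertical axis, 1 point per library, for 8 NS, 8 AK and 4 cSCC; the line is the median. The 4 cSCC lie below all NS for Krt1, Krt10, Krt77, Krt78 and Krt79, whereas their Krt5 and Krt14 points lie on both sides of those of AK.

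The comparison of AK with NS asked which of these keratins differ between the precancerous lesion and the pooled NS. Krt77, Krt2 and Krt79 fell in AK, and the main pair of the suprabasal layers, Krt1 and Krt10, did not pass the test. No member rose. Across all 11677 genes tested, 2.38% were lower and 2.26% higher in AK, against 3 and 0 of the 9 members. A gene was called when its adjusted p was under 0.05 and it also changed by more than 1.5-fold up or to less than 0.67 of the other group.

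Krt77 was at 28.0, 686 and 2318 CPM in NS (lowest, median and highest) and at 0, 3.31 and 176 CPM in AK. In AK, 6 of 8 libraries lay below every NS library, and AK replicate 12 had no count of it, which in that library allows up to 3.78 CPM. The log2 fold change was -4.79 (SE 1.07, adjusted p = 0.0209). This was the largest change among the 9 genes in AK, and Krt77 was at 5.20 CPM or less in all AK except replicates 10 and 17, at 176 and 42.7 CPM. Without AK replicate 10 the log2 fold change was -6.54.

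Krt2, the chain added last in the upper layers, was at 1.28, 34.5 and 74.5 CPM in NS and at 0, 1.62 and 18.7 CPM in AK. All 8 AK lay below the NS median, but only 3 lay below every NS library. The log2 fold change was -2.99 (SE 0.82, adjusted p = 0.0411). The call is close to the limit: it was lost on leaving out any of NS replicates 1, 4, 5 and 6 or AK replicates 11 to 17 (adjusted p from 0.0610 to 0.0824), and in limma voom (adjusted p = 0.127). AK had 0 to 10 counts of Krt2 in 7 libraries and 250 in the deepest, replicate 10, without which the log2 fold change was -4.39 (adjusted p = 0.00775).

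Krt79 was at 562, 776 and 1623 CPM in NS and at 243, 438 and 770 CPM in AK. It had the smallest spread of the 3, and 7 of 8 AK lay below every NS library. It was 2.39-fold lower in AK (log2 fold change -1.26, SE 0.26, adjusted p = 0.0190). With all 20 samples in 1 fit, where the spread is shared with cSCC, 9 genes in all were called for AK vs. NS and none was a member (adjusted p = 0.0741 for Krt77, 0.0912 for Krt2 and 0.243 for Krt79), with 1931 genes at an unadjusted p under 0.05 by that fit.

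Krt10 was at 899, 1685 and 2486 CPM in NS and at 231, 705 and 1907 CPM in AK, and 5 of 8 AK lay below every NS library. Its log2 fold change was -0.91 (SE 0.34, adjusted p = 0.110), which missed the limit in edgeR but passed in DESeq2 (adjusted p = 0.0470), in limma voom (adjusted p = 0.0254) and without AK replicate 10 (adjusted p = 0.0373). Krt1 overlapped far more, at 933, 2659 and 5492 CPM in NS and 578, 1882 and 3918 CPM in AK, with a log2 fold change of -0.43 (95% interval -1.19 to 0.32, adjusted p = 0.482). Krt78 differed by -0.52 (95% interval -1.13 to 0.08, adjusted p = 0.273).

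The basal chains were not called in AK. Krt14 was at 3660, 5982 and 13137 CPM in NS and 7045, 9165 and 11217 CPM in AK, where no library lay below the NS median (log2 fold change 0.38, 95% interval -0.16 to 0.93, adjusted p = 0.378). Krt5 differed by -0.21 (95% interval -0.68 to 0.25, adjusted p = 0.584). Krt15, at 104, 352 and 887 CPM in NS and 93.4, 173 and 295 CPM in AK, had all 8 AK below the NS median (log2 fold change -1.09, SE 0.38, adjusted p = 0.0861), and passed in DESeq2 (adjusted p = 0.0307) and without NS replicate 8 (adjusted p = 0.0344). No member had every AK library below every NS library, a pattern found in 0.128% of all genes tested.

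The comparison of cSCC with NS asked which keratins differ in the carcinoma. All 6 suprabasal keratins fell and none of the 3 basal keratins was called. Among all 12097 genes tested, 7.65% were lower and 11.7% higher in cSCC, against 6 and 0 of the 9 members. Every cSCC library lay below every NS library for 5 members (Krt1, Krt10, Krt77, Krt78 and Krt79), a pattern found in 5.73% of all genes. The median log2 fold change of the suprabasal members was -3.90, beside 0.14 over all genes tested. With library size alone the median of all genes was -0.17 and 1332 genes were called lower and 625 higher, in place of 926 and 1414; the 6 members were called under that scaling too.

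Krt10 was at 321 CPM in cSCC replicate 18, 9.23 in replicate 19, 44.4 in replicate 20 and 11.6 in replicate 21, against at least 899 CPM in every NS. It was 16.5-fold lower (log2 fold change -4.04, SE 0.92, adjusted p = 0.00920). Its type II partner Krt1 was at 820, 41.3, 119 and 13.2 CPM in the same libraries and at least 933 CPM in NS, and was lower too (log2 fold change -3.46, SE 0.97, adjusted p = 0.0244). Replicate 18 thus held most of both chains that remained in cSCC, and the other 3 libraries held far less. Without it the log2 fold change was -6.24 for Krt10 and -5.58 for Krt1. The call of Krt1 was lost without cSCC replicate 19 (adjusted p = 0.0547), without replicate 20 (adjusted p = 0.0576) and without both 20 and 21 (log2 fold change -2.68, adjusted p = 0.0903), whereas that of Krt10 held without both (-3.29, adjusted p = 0.0463). With library size alone and without both, the log2 fold change was -3.67 for Krt1 (adjusted p = 0.0155) and -4.32 for Krt10 (adjusted p = 0.00737).

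Krt77 was nearly absent from cSCC, with 1, 6, 1 and 15 counts in replicates 18 to 21, or 0.695 to 2.64 CPM, and 92 counts or more in every NS. The log2 fold change was -8.67 (SE 1.27, adjusted p = 0.00144), which rests on few counts in cSCC, and in limma voom the adjusted p was 0.232. Krt79 was at 74.3, 5.27, 75.1 and 1.82 CPM in replicates 18 to 21, and fell 25.5-fold (log2 fold change -4.67, SE 0.92, adjusted p = 0.00486). Krt78 was at 16.7, 1.76, 2.28 and 25.5 CPM, against at least 39.7 CPM in NS (log2 fold change -2.77, SE 0.63, adjusted p = 0.00968). Krt77 and Krt78 were not highest in replicate 18, in contrast to Krt1 and Krt10, whereas Krt79 was nearly equal in replicates 18 and 20. The calls of all 3 genes held without cSCC replicates 20 and 21 (log2 fold change -8.80 and adjusted p = 0.0123 for Krt77, -4.67 and 0.00825 for Krt79, and -3.30 and 0.0162 for Krt78). The log2 fold change of Krt79 was -5.27 without replicate 18, and that of Krt78 was -3.61 without replicate 21.

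Krt2 had 6, 7, 2 and 5 counts in cSCC replicates 18 to 21. Its level of 0.827 to 4.17 CPM overlapped with the lowest NS, which were at 1.28 and 2.61 CPM (log2 fold change -3.75, SE 1.16, adjusted p = 0.0362). The call was lost without any 1 of NS replicates 1, 4, 5 and 6 or cSCC replicates 19, 20 and 21 (adjusted p from 0.0547 to 0.0990), without both 20 and 21 (log2 fold change -3.20, adjusted p = 0.190) and in limma voom (adjusted p = 0.644).

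Krt14 was at 14100, 13516, 4115 and 2917 CPM in cSCC replicates 18 to 21, so 2 libraries lay above every NS and 1 below every NS. As a share of all counts, without the scaling factor, Krt14 took 0.717% of replicate 18, inside the 0.404% to 1.30% of NS, and 1.54% of replicate 19, which alone exceeded NS. The log2 fold change was 0.39 (95% interval -0.79 to 1.57, adjusted p = 0.659). Krt5 was at 2160, 3141, 651 and 730 CPM, with a log2 fold change of 0.38 (95% interval -0.60 to 1.36, adjusted p = 0.596). The 2 lower values of both chains were those of replicates 20 and 21, the libraries with lung and heart markers, and without them the log2 fold change was 1.05 for Krt14 (adjusted p = 0.178) and 1.03 for Krt5 (adjusted p = 0.111). Krt15 was at 404, 29.0, 116 and 28.4 CPM (log2 fold change -1.35, 95% interval -2.92 to 0.22, adjusted p = 0.211), and without replicate 18 it passed (log2 fold change -2.70, adjusted p = 0.0179), whereas without replicates 20 and 21 it was at -0.79 (adjusted p = 0.575).

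**Figure D2:**
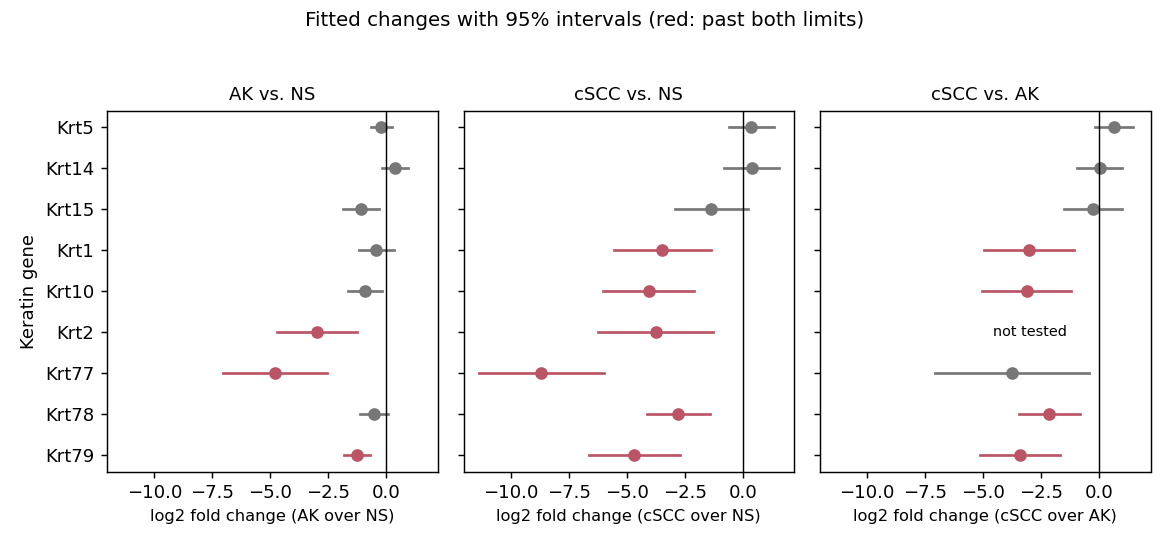
Log2 fold change on the horizontal axis for each of the 9 keratins in the 3 comparisons, with 95% intervals; red points passed both limits of a call and grey points did not. In cSCC vs. NS the 6 suprabasal genes lie between -8.67 and -2.77 and the intervals of the 3 basal genes cross 0; Krt2 was not tested for cSCC vs. AK.

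The comparison of cSCC with AK asked what separates the carcinoma from the precancerous lesion. It uses the same cSCC and AK libraries as the comparisons above, so its values are not independent of them. Krt1, Krt10, Krt78 and Krt79 were lower in cSCC than in AK, no member was higher, and Krt2 had too few counts to be tested. Among all 12032 genes tested, 8.34% were lower and 16% higher in cSCC, against 4 and 0 of the 8 members tested. By CPM, Krt79 was the 1 member with every cSCC library below every AK library, a pattern found in 6.84% of genes. As a share of all counts, without the scaling factor, this also held for Krt1, Krt10 and Krt78. The highest cSCC and lowest AK were 0.0417% and 0.0601% for Krt1, 0.0163% and 0.0241% for Krt10, and 0.00217% and 0.00231% for Krt78. How many of all genes separate by share was not counted.

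Krt79 was 10.7-fold lower in cSCC than in AK (log2 fold change -3.42, SE 0.81, adjusted p = 0.00935). Krt10 was 8.71-fold lower (log2 fold change -3.12, SE 0.90, adjusted p = 0.0226), and Krt1 8.11-fold lower (log2 fold change -3.02, SE 0.90, adjusted p = 0.0259). By CPM, 3 of 4 cSCC lay below every AK for each of Krt1 and Krt10, and the remaining library was replicate 18. As a share of all counts, without the scaling factor, replicate 18 too lay below every AK for both genes. Without replicate 18 the log2 fold change was -5.36 for Krt10, -5.16 for Krt1 and -4.04 for Krt79. Krt78 was 4.44-fold lower (log2 fold change -2.15, SE 0.62, adjusted p = 0.0220), with an adjusted p of 0.0674 in limma voom and a log2 fold change of -3.13 without replicate 21. Krt77, already low in AK, differed by -3.76 (SE 1.56, adjusted p = 0.0901) and no cSCC lay below all AK (-3.96 without replicates 20 and 21, adjusted p = 0.274).

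Without cSCC replicates 20 and 21 the calls of Krt79 (log2 fold change -3.42) and Krt78 (-2.77) held, and Krt2 was tested and differed by -0.08 (adjusted p = 0.976). Those of Krt1 (log2 fold change -2.24, adjusted p = 0.104) and Krt10 (-2.37, adjusted p = 0.127) were lost. For the same libraries with library size alone both passed (-3.17, adjusted p = 0.0200 for Krt1 and -3.32, adjusted p = 0.0315 for Krt10). Krt5 was called higher in these 2 cSCC (log2 fold change 1.28, adjusted p = 0.00860), but with library size alone it missed the limit (1.03, adjusted p = 0.0630). As a share of all counts Krt5 took 0.110% of replicate 18, inside the 0.0892% to 0.153% of AK, and 0.358% of replicate 19. Leaving out replicate 20 alone also ended the calls of Krt10 (adjusted p = 0.0541) and Krt1 (adjusted p = 0.0610), and leaving out replicate 19 that of Krt1 (adjusted p = 0.0543). With all 4 cSCC the basal chains differed by 0.63 for Krt5 (95% interval -0.19 to 1.45, adjusted p = 0.240), by 0.04 for Krt14 (95% interval -0.93 to 1.01, adjusted p = 0.958) and by -0.26 for Krt15 (95% interval -1.52 to 1.00, adjusted p = 0.783). The sign of the Krt14 value turns with the scaling, to -0.25 with library size alone, and without replicates 20 and 21 the value was 0.69 (adjusted p = 0.135). Without replicate 18 Krt15 was lower in cSCC (log2 fold change -1.63, adjusted p = 0.0314).

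A ratio of 2 keratins within a library does not depend on library size or scaling, and shows whether they changed unequally. The log2 ratio of counts was compared between groups for 6 ratios and 3 comparisons by a two-sided exact permutation test, with adjustment over these 18 tests. The smallest p that 4 cSCC against 8 libraries can give is 0.00202.

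The type I chains Krt10 and Krt14 were compared as Krt10/Krt14, which in bulk tissue can also move with the mix of cells. Its log2 value was -3.66, -2.02 and -1.24 in NS (lowest, median and highest), -4.93, -3.67 and -2.22 in AK, and -5.46, -10.48, -6.52 and -7.97 in cSCC replicates 18 to 21. For every 100 counts of Krt14 the median number of Krt10 counts was 24.7 (NS), 8.10 (AK) and 0.746 (cSCC). The difference was -1.57 for AK vs. NS (exact p = 0.00420, adjusted p = 0.0108), -5.58 for cSCC vs. NS and -4.01 for cSCC vs. AK (exact p = 0.00202 and adjusted p = 0.00727 for each). No cSCC library overlapped with NS or AK in this ratio, whereas AK and NS overlapped.

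The type II counterpart Krt1/Krt5 did not follow it in AK. Its log2 value was 0.03, 0.73 and 2.01 in NS and -0.64, 0.86 and 1.52 in AK (difference -0.26, exact p = 0.472), and -1.40, -6.24, -2.44 and -5.78 in the 4 cSCC. The difference was -4.93 for cSCC vs. NS and -4.67 for cSCC vs. AK (adjusted p = 0.00727 for each, exact permutation test). The ratios between the partners of a pair were also compared. They are built from the same genes as Krt10/Krt14 and Krt1/Krt5, so their values are not independent of those. Krt5/Krt14 was lower in AK than in NS (difference -0.65, adjusted p = 0.00839, exact permutation test) and higher in cSCC than in AK (difference 0.60, adjusted p = 0.0136, exact permutation test), and for cSCC vs. NS it differed by -0.05 (exact p = 0.842). Krt1/Krt10 was higher in AK than in NS (difference 0.66, adjusted p = 0.0137, exact permutation test), at 1.04 to 1.60 in AK and 0.05 to 1.36 in NS. In cSCC it differed from NS by 0.60 (exact p = 0.147) and from AK by -0.05 (exact p = 0.812).

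Krt15/Krt14 was -6.99, -4.53 and -2.06 in NS and -6.91, -5.63 and -5.00 in AK (difference -1.42, exact p = 0.0375, adjusted p = 0.0674), which did not pass after adjustment. For cSCC it differed by -2.12 from NS (adjusted p = 0.0917, exact permutation test) and by -0.70 from AK (exact p = 0.358). Krt2/Krt10 differed by -1.86 for AK vs. NS and 2.78 for cSCC vs. NS (adjusted p = 0.0917 for each, exact permutation test). Krt2/Krt10 was 4.64 higher in cSCC than in AK (adjusted p = 0.00727, exact permutation test). Krt2 had 2 to 7 counts per cSCC library, so the values with cSCC rest on a gene near its floor. In AK, Krt2 had a median of 7 counts per library and 0 in replicate 12, so the AK vs. NS value also rests on few counts. Without cSCC replicates 20 and 21 no ratio passed, where the exact permutation test of 2 cSCC against 8 libraries cannot go below p = 0.0222, and the differences for Krt10/Krt14 were then -5.94 against NS and -4.38 against AK. Those for Krt1/Krt5 were -4.78 and -4.52, for Krt5/Krt14 -0.087 and 0.56, for Krt1/Krt10 1.07 and 0.42, for Krt15/Krt14 -2.66 and -1.24, and for Krt2/Krt10 2.78 and 4.64.

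**Figure D3:**
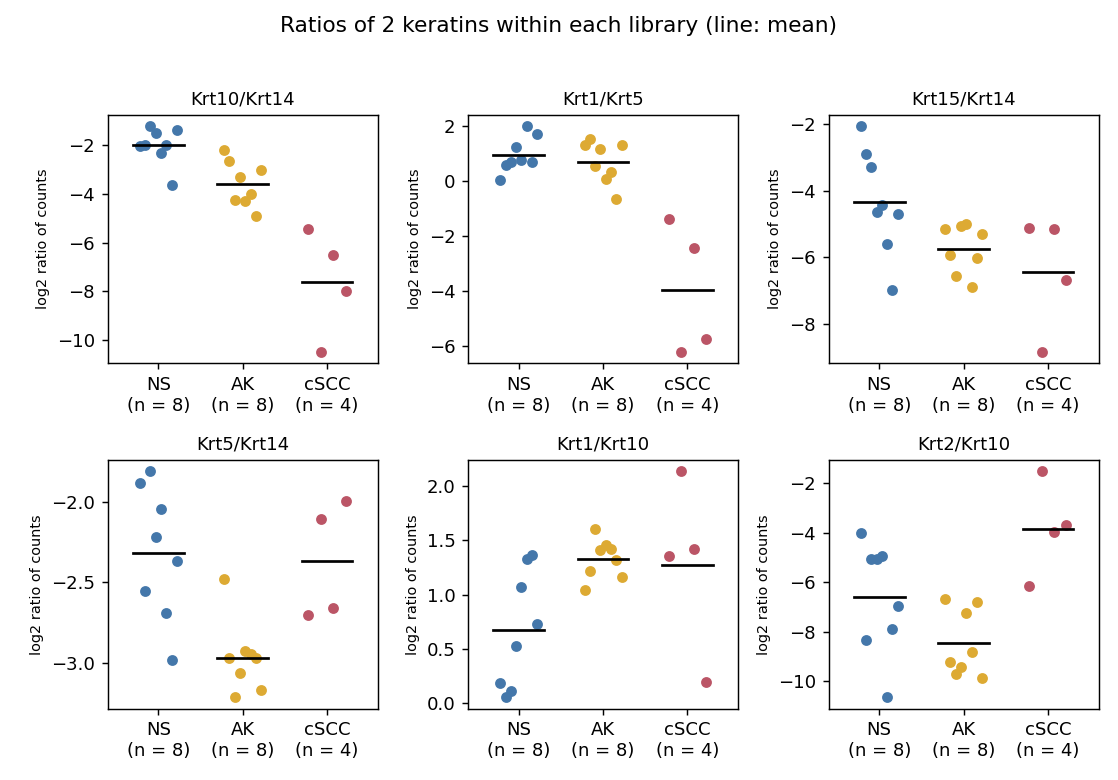
Log2 ratio of counts of 2 keratins on the vertical axis, 1 point per library with the group mean as a line. Krt10/Krt14 steps down from NS (mean -2.03) to AK (-3.59) and cSCC (-7.61), Krt1/Krt5 drops in cSCC (mean -3.96), and Krt1/Krt10 is narrower in AK, at 1.04 to 1.60, than in NS or cSCC.

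Summed over the 9 genes, keratin counts took 0.949% to 2.08% of a library in NS (median 1.70%), 0.951% to 1.67% in AK (median 1.37%) and 0.318% to 1.91% in cSCC (median 0.746%). The suprabasal genes made up 23.6% to 56.2% of these counts in NS, 11.9% to 39.2% in AK and 0.378% to 6.91% in cSCC, so no cSCC reached the lowest AK. Krt14 alone made up 34.1% to 67.4% in NS, 50.4% to 77.1% in AK and 78.2% to 80.7% in cSCC. The total was lowest in cSCC replicate 21, and cSCC replicate 19, with the smallest suprabasal portion, had a total within the range of NS. Replicates 18 and 19 alone had totals of 0.910% and 1.91% and suprabasal portions of 6.91% and 0.378%. These shares were not tested.

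**Figure D4:**
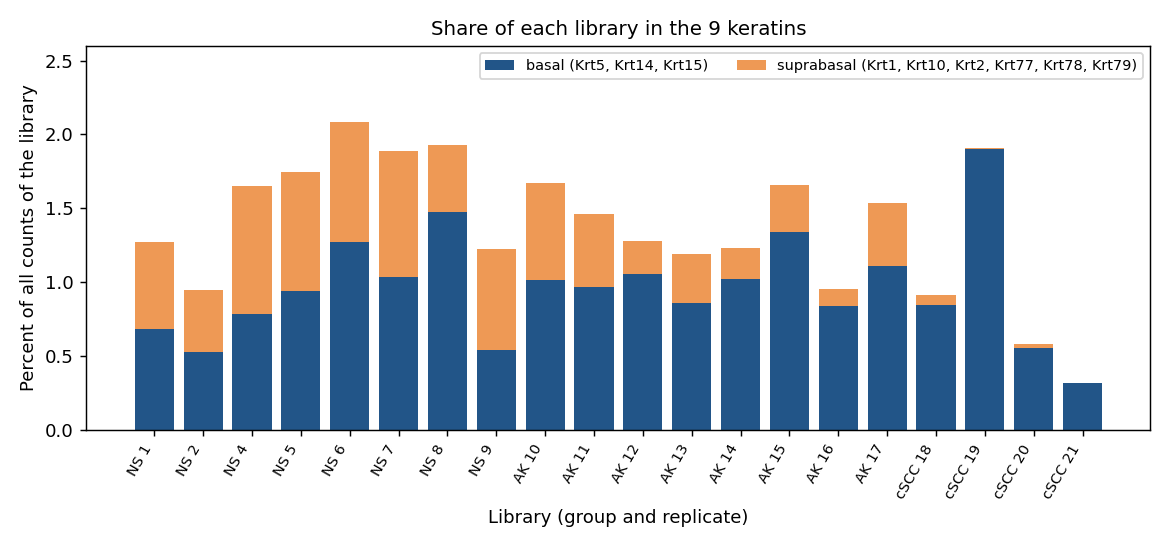
Percent of all counts of each of the 20 libraries in the 3 basal and the 6 suprabasal keratins, as stacked bars from 0. The suprabasal part is 0.422% to 0.872% of a library in NS and at most 0.0629% in cSCC, while the basal part in cSCC spans 0.313% to 1.90%.

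The genes to which keratin filaments are anchored, the plakins, plakophilins and hemidesmosome components, were examined as a list of 12, of which 11 were tested. None was called for AK vs. NS. For cSCC vs. NS 1 was higher and 3 lower, with a list median of -0.75 beside 0.14 over all genes. Periplakin (Ppl) fell most, by 2.49 on the log2 scale (SE 0.38, adjusted p = 0.00167), followed by envoplakin (Evpl, -1.58, adjusted p = 0.0261), which also belongs to the cornified envelope, and dystonin (Dst, -1.51, adjusted p = 0.0137), which links basal keratin filaments to the hemidesmosome. Plectin (Plec), another linker of filaments to the hemidesmosome, was higher (0.86, adjusted p = 0.0498). For cSCC vs. AK 1 was higher and 4 lower, namely Plec (1.71, adjusted p = 0.00646), Ppl (-2.03, adjusted p = 0.00323), plakophilin 1 (Pkp1, -1.14, adjusted p = 0.0259) and desmoplakin (Dsp, -0.96, adjusted p = 0.0320), as well as Dst, named after its value was seen. Without cSCC replicates 20 and 21, Ppl was the 1 gene of the list called for cSCC vs. NS (-2.36, adjusted p = 0.00329), and for cSCC vs. AK Ppl was lower and Plec and Itgb4 were higher.

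Of 10 genes listed as early differentiation genes, none was called for AK vs. NS (list median -0.31). For cSCC vs. NS 1 of these genes was higher and 3 were lower (list median -1.37). Sbsn (-2.54, adjusted p = 0.00518), Krtdap (-2.32, adjusted p = 0.0479) and Calml3 (-1.97, adjusted p = 0.0215) fell, while Sfn, a 14-3-3 protein of stratified epithelia, rose (1.54, adjusted p = 0.0185). For cSCC vs. AK Sbsn, Calml3 and Perp were lower and Sfn was higher (list median -1.26). Without replicates 20 and 21, Sbsn was still lower than in NS (adjusted p = 0.0343) and Sfn higher than in NS (adjusted p = 0.00841) and in AK (adjusted p = 0.00217), and no other gene of the list was called. Of 14 transcription regulators of the epidermis, Hes1, a Notch target, was the 1 called for AK vs. NS (-1.20, adjusted p = 0.0249). For cSCC vs. NS 5 were lower and none higher: Cebpa (-2.23, adjusted p = 0.00920), Zfp750 (-2.01, adjusted p = 0.00185), Klf4 (-1.49, adjusted p = 0.0311), Tfap2a (-1.38, adjusted p = 0.0371) and Hes1 (-1.32, adjusted p = 0.0282), of which Hes1 was named after its value was seen. For cSCC vs. AK 6 were lower and none higher. In the edgeR test of cSCC vs. AK the largest were Zfp750 (-1.81, adjusted p = 0.00248), Cebpa (-1.57, adjusted p = 0.0267), Klf4 (-1.42, adjusted p = 0.0186) and Tfap2c (-1.40, adjusted p = 0.0165). Zfp750 and Klf4 promote terminal differentiation of keratinocytes. Without replicates 20 and 21, Zfp750 and Cebpa were the 2 called against NS (adjusted p = 0.0163 and 0.00487), and both were called against AK together with Grhl3, a regulator of barrier formation.

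The table held 42 further keratin genes. For AK vs. NS 16 were tested, of which Krt20 was higher (1.97, adjusted p = 0.0151) and Krt23 lower (-1.29, adjusted p = 0.0282), both named after their values were seen. For cSCC vs. NS 4 of 20 tested were higher and 3 lower. Krt13 (2.97, adjusted p = 0.00767), Krt76 (2.22, adjusted p = 0.0150) and Krt19 (1.32, adjusted p = 0.0304) rose in cSCC against NS and were also higher than in AK. Krt13 and Krt76 are keratins of differentiated oral epithelia and Krt19 is a simple epithelial keratin. Krt13 was at 5.69 to 111 CPM in cSCC, against 0.851 to 8.83 CPM in NS. Krt18, another simple epithelial keratin, was higher than in NS, at 3.47 to 1112 CPM in cSCC and 0 to 7.23 CPM in NS (adjusted p = 0.00228). The 4 simple epithelial keratins Krt7, Krt8, Krt18 and Krt19 summed to 76.4, 1220, 350 and 35.2 CPM in cSCC replicates 18 to 21. The 1112 CPM of Krt18 was therefore that of replicate 19, on which its call without replicates 20 and 21 mainly rests. Krt23, Krt27 and Krt32 were lower than in NS, and were named after their values were seen, as was Krt75, the fourth keratin higher in cSCC than in AK. Without replicates 20 and 21, 6 of 30 keratins tested were higher than in NS (Krt13, Krt17, Krt18, Krt19, Krt42 and Krt76) and none was called lower, where Krt27 was at -8.86 (adjusted p = 0.154), Krt32 at -7.02 (adjusted p = 0.168) and Krt23 at -2.19 (adjusted p = 0.0785). Of 18 tested, 5 were higher than in AK (Krt6a, Krt13, Krt17, Krt19 and Krt42). The 4 stress keratins, which keratinocytes make in wounds, were not called in any of the 3 comparisons with all libraries, with list medians of 0.97 for AK vs. NS, 0.88 for cSCC vs. NS and 0.22 for cSCC vs. AK; the NS libraries 7 and 8 that reached the AK range in these genes are part of the NS group here.

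Markers of other tissues gave the following beside these values. For AK vs. NS no gene of the heart muscle, lung epithelium, skeletal muscle, fibroblast, endothelial, leukocyte and adipocyte lists was called. For cSCC vs. NS 4 of 5 heart and 3 of 3 lung genes tested were higher, 4 of 8 skeletal muscle genes were lower, 1 of 8 leukocyte genes was lower, and no fibroblast or adipocyte gene was called. The summed skeletal muscle markers were at 714 to 8558 CPM in NS, 26.7 to 5580 CPM in AK and 545 to 8328 CPM in cSCC, and the summed fibroblast markers at 1108 to 8458 CPM in NS, 1265 to 4950 CPM in AK and 1352 to 6189 CPM in cSCC. For cSCC vs. AK 1 skeletal muscle, 1 fibroblast and 1 leukocyte gene were higher and no adipocyte gene was called. Without cSCC replicates 20 and 21, the calls against NS were 1 heart gene higher (Tnnt2), 1 lung and 1 skeletal muscle gene lower, 4 of 7 adipocyte genes lower and no endothelial, fibroblast or leukocyte gene. Against AK they were then 1 heart, 1 endothelial and 1 fibroblast gene higher and 5 of 6 adipocyte genes lower. The adipocyte markers summed to 539 to 4863 CPM in NS, 528 to 2689 CPM in AK and 186 to 3585 CPM in cSCC. Their part in the keratin values was not tested.

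Among the 8973 non-member genes with a mean of 10 CPM or more, those whose log2(CPM + 1) followed Krt14 most closely over the 16 NS and AK libraries were Krt16, Krt6b, Krt42, Pla2g4e and Gm5478 (Pearson r from 0.931 to 0.948). For Krt10 they were Slurp1, Guk1, Pdzk1ip1, Csnk2b and Sbsn (r from 0.908 to 0.918). For Krt2 they were Foxn3, Il20rb, Ptpn21, Mllt4 and Cgn (r from 0.893 to 0.921). These values describe likeness over libraries that share group and mouse, and Krt42 and Krt16 may share reads with Krt14. By rank correlation 2 of the 5 genes remained in the first 5 for Krt14 (Krt6b and Krt42), 1 for Krt10 (Csnk2b) and none for Krt2.

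Among the 9 keratins themselves, correlation was tested over the 8 NS, each from a different mouse by the methods. None of the 36 pairs passed after adjustment by an exact permutation test (lowest adjusted p = 0.142 for Pearson's r and 0.130 for Spearman's rho), and 7 pairs had an unadjusted p under 0.05 for r. The partners Krt5 and Krt14 gave r = 0.81 (exact p = 0.0158) and rho = 0.88 (exact p = 0.00724), and r = 0.72 without the 2 libraries farthest from the median of Krt5. The partners Krt1 and Krt10 gave r = 0.81 (exact p = 0.0139) and rho = 0.74 (exact p = 0.0458), which dropped to r = 0.42 without the 2 farthest libraries.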

How the data were processed

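RNA-seq of 20 mouse skin tissues was used (8 NS, 8 AK and 4 cSCC), grouped by the labels. The paper's methods name Trimmomatic 0.36, HISAT2 on GRCm38 and StringTie, whereas the submitters' processing notes list Trimmomatic 0.36, HISAT2 2.0.5, featureCounts 1.5.2 and the builds mm9 and hg19; which made the table, and the strand used, are not given in the sources used here. The labels and methods also differ in the instrument and in the days of irradiation. The authors deposited raw counts per gene symbol, not normalized. Totals ranged from 775750 to 14055206 counts. Over 62 pairs of libraries within groups the counts differed by at least 12.3 times the sampling variance, so none was counted as a repeat of another.

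CPM used TMM factors over 20 libraries. Each comparison used the libraries of its 2 groups only, genes kept by filterByExpr and edgeR's quasi-likelihood test (edgeR 4.0.16, R 4.3.3), with Benjamini-Hochberg adjustment over all genes tested; calls needed an adjusted p under 0.05 with a change to more than 1.5 or less than 0.67 times the other group. The error given as SE is the log2 fold change divided by the square root of F, and the 95% interval uses the t quantile of the fitted degrees of freedom. Ratios used counts plus 0.5 and an exact permutation test. Python 3.11.15 with numpy 2.4.6, pandas 2.3.3 and scipy 1.17.1 was used. Tested on simulated counts with a log2 fold change of 2, the AK vs. NS test found 93.7% of 189 changed genes (8 false calls). For cSCC it found 46.1% of 193 against NS (2 false calls) and 62.4% of 197 against AK (4 false calls).

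The members, gene lists and tests were chosen with earlier results of these data known. Named genes are all members, and up to 4 called genes with the largest change per list and comparison. The 5 genes most like Krt14, Krt10 and Krt2 and the other keratins called in both cSCC comparisons are also named, and exceptions are stated. Of the lists, only the members, the stress keratins and the simple epithelial keratins are given in full in the text. Alternatives were DESeq2 1.42.0 and its size factors, limma 3.58.1 voom with quality weights, upper quartile factors, library size alone, members left out of the scaling, no filter on low counts or at least 10 counts in every sample, no fold limit, all 20 samples in 1 fit, each library left out in turn, cSCC replicates 20 and 21 left out (for the gene lists, and together with library size alone, chosen after seeing the data), 1 CPM added or medians for ratios, and rank correlation. No reads, pathology grades or mouse pairing were analysed here.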

Additional observations from a re-analysis of the deposited data

Results flagged for a closer look

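In 45 groups of values (9 levels and 6 ratios in NS, AK and cSCC), the highest or lowest library was compared with its neighbour by Dixon's criterion. Chance meets it in about 1 of 20 groups if the values are normally distributed. Levels were taken as CPM without logarithm, and their distribution was not checked, so this rate may not hold for them. It was met 6 times. In cSCC, replicate 18 stood apart at 820 CPM of Krt1, with the next library at 119 CPM, and at 321 CPM of Krt10, with the next at 44.4 CPM. These CPM include the scaling factor of 0.509 of replicate 18. As a share of all counts, replicate 18 was at 0.0417% of Krt1 (next 0.0135%) and 0.0163% of Krt10 (next 0.00503%). Dixon's criterion was not applied to shares, so these flags hold for the scaled levels only. In AK, replicate 10, the deepest library, stood apart at 18.7 CPM of Krt2 (next 3.02 CPM), at 176 CPM of Krt77 (next 42.7 CPM) and at a Krt5/Krt14 log2 ratio of -2.48 (next -2.93). In NS, replicate 8 stood apart at a Krt10/Krt14 log2 ratio of -3.66 (next -2.35).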

How the results depend on the processing

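No paired analysis was possible because the labels do not tie tissues to mice and the groups share no replicate number. The number of members called for AK vs. NS was 3, and became 5 in DESeq2, 0 with all 20 samples in 1 fit (cause not tested), and 1 with at least 10 counts in every sample, where Krt2 and Krt77 were not tested; for cSCC vs. NS it was 6 and became 3 under that filter, where Krt2, Krt77 and Krt78 were not tested. For cSCC vs. AK 4 members were called, and 2 to 5 on leaving out 1 library, with 2 without cSCC replicate 20. Under DESeq2 size factors, library size alone, upper quartile factors and scaling without the members, every called member kept its call and direction. The number of ratios that passed was 3 for AK vs. NS, 3 to 5 on leaving out 1 library, with 5 without NS replicate 7. For cSCC vs. NS 2 and for cSCC vs. AK 4 ratios passed, and 0 in both without replicates 20 and 21, where 2 against 8 libraries cannot give a p under 0.0222. Signs turned for values that had not been called. Krt14 for cSCC vs. AK became -0.25 with library size alone, -0.14 in limma voom, -0.11 with no filter and -0.061 in 1 fit, and Krt15 became 0.30 without both replicates. The Krt1/Krt10 difference for cSCC vs. AK became 0.42 without both and 0.018 by medians, and the Krt1/Krt5 difference for AK vs. NS 0.14 by medians. On leaving out 1 library, log2 fold changes ranged from -0.12 to 0.64 for Krt5 (cSCC vs. NS), from -0.35 to 0.27 for Krt14 and from -1.63 to 0.081 for Krt15 (both cSCC vs. AK). Ratio differences likewise ranged from -0.17 to 0.065 for Krt5/Krt14 (cSCC vs. NS), from -1.14 to 0.10 for Krt15/Krt14 and from -0.34 to 0.31 for Krt1/Krt10 (both cSCC vs. AK). Over all genes, the number called for AK vs. NS was 542, 9 in 1 fit, 1049 in DESeq2 and 1043 in limma voom, and 164 to 920 on leaving out 1 library. For cSCC vs. NS it was 2340, 1308 in limma voom, 1526 with at least 10 counts and 1558 without replicates 20 and 21, and for cSCC vs. AK 2935, 1270, 1731 and 1584, and 1787 to 3994 on leaving out 1 library. Counts in the gene lists without replicates 20 and 21, and the fits that also used library size alone, were added after the data were seen. The cause of the other changes was not tested. With 3 counts at 0.225 to 3.78 CPM, differences of Krt2 and Krt77 among lesions were near the limit of detection.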
